A study of Mus musculus with 6 samples.

Results

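The regions described here are 2029 stretches of the mouse genome at which OCT4 was bound in Esrrb-GFP medium embryonic stem cells and was listed in neither Esrrb-GFP high nor Esrrb-GFP negative cells, and at which NANOG was listed in none of the 3 populations. They were chosen by their presence or absence in the deposited lists of bound regions, with the start and end of an interval matching exactly, so presence in the lists is the reason for their choice and not a result. They make up 8.54% of the 23767 distinct regions of all 6 lists, 14.0% (95% interval 13.5 to 14.6) of the 14464 OCT4 regions of Esrrb-GFP medium cells, and 18.6% (17.9 to 19.4) of the 10884 OCT4 regions of these cells that lack NANOG in every population.

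The cells were E14Tg2a Esrrb-2a-GFPd-IBIH mouse ESCs, a reporter line in which a destabilised GFP is made from the *Esrrb* locus; all groups carry the reporter, were grown in medium with serum and LIF, and received no other treatment named in the labels. Fixed cells were sorted into high (the top 10% of GFP), medium (the 15% next to the negative cells) and negative fractions, of which the labels call the last both Esrrb-Negative and Esrrb-low. OCT4 and NANOG ChIP-Seq gave 1 library per factor and fraction, each pooled from 3 ChIPs, so that no spread between replicates exists and no p-value was computed. The lists hold coordinates on mm9 without scores, and a region stays in the list of a fraction where at least 50% of its highest depth-normalised signal was retained. By that rule a region listed in medium cells only held under 50% of its highest signal in the others. OCT4 may still have been bound there at a lower level, so medium only does not mean absent elsewhere. Read numbers, and values of regions just inside and outside that limit, are not in these lists.

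OCT4 is a POU transcription factor that recognises the octamer and often binds beside SOX2 on a composite Oct-Sox element. NANOG, a homeodomain protein, occupies many of the same enhancers in naive ESCs, while ESRRB, an orphan nuclear receptor whose gene carries the reporter, binds an extended half-site. Levels of NANOG and ESRRB vary from cell to cell in serum and LIF, and cells with little of them are more prone to differentiate.

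The sequences below show the regions base by base, each as the 200 bases around the region centre on the plus strand of mm9, with matches to the octamer (ATGCAAAT), the Oct-Sox composite with up to 2 mismatches, the ESRRB motif (TCAAGGTCA, up to 1 mismatch) or the KLF motif (GGGNGTGG) on either strand in capitals. The first set holds an octamer or Oct-Sox match: *Otx2* and *Zfp42* are the only regions within 20 kb of a listed gene with an exact octamer or an Oct-Sox composite with up to 1 mismatch in or near the region, *Gsc* is the remaining such region with any match, and the regions nearest to *Ankrd27* and *Spry2* were added after their values were seen, as the 2 of 2029 with a perfect Oct-Sox composite.
*Otx2*, chr14:49282552-49282751: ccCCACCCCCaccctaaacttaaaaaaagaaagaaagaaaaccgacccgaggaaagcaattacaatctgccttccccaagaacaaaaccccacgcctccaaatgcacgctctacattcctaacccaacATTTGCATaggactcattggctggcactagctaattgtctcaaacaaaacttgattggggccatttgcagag
*Zfp42*, chr8:44392412-44392611: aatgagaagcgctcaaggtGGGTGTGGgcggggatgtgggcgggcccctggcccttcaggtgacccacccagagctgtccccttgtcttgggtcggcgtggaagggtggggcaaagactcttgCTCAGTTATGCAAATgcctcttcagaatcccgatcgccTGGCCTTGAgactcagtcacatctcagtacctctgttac
*Gsc*, chr12:105713282-105713481: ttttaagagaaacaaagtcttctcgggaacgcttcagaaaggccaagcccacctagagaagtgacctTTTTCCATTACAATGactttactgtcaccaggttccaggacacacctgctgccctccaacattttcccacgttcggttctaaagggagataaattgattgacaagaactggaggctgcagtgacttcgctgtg
*Ankrd27*, chr7:36402552-36402751: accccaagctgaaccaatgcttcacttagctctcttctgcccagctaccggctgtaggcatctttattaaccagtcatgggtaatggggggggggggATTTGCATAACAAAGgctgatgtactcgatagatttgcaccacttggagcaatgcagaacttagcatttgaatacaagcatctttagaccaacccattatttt
*Spry2*, chr14:106201752-106201951: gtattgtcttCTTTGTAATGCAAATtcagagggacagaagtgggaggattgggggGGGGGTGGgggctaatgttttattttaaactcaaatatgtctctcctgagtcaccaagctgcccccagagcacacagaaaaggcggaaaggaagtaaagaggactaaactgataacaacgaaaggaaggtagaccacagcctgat

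In the *Otx2* region (chr14:49282612-49282691) the octamer lies at positions 129 to 136 of the printed bases, and the region is in an intron, 105 bp upstream of an annotated start site. The *Zfp42* region (chr8:44392352-44392671) is 320 bp wide and overlaps the start of the gene, with its centre 149 bp upstream of the start site; its octamer at 131 to 138 forms the end of an Oct-Sox match with 2 mismatches, and an ESRRB match lies at 162 to 170. The *Gsc* region (chr12:105713352-105713411) has its Oct-Sox match, again with 2 mismatches, at 68 to 82. The perfect composite lies inside the *Ankrd27* region (chr7:36402612-36402691), which is in an intron, and outside the *Spry2* region (chr14:106201832-106201871), which is 94184 bp from a start site of that gene and 20 bp from another bound region.

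The second set stands for the regions without an octamer or Oct-Sox match. *Lef1*, *Trim28*, *Cbx7* and *Jarid2* hold the regions of this kind that are closest to a start site of a listed gene. The upstream regions of *Nodal* and *Dusp4* were added after their values were seen, *Nodal* for its ESRRB match and *Dusp4* as a listed gene with no other bound region within 20 kb.
*Lef1*, chr3:130815592-130815791: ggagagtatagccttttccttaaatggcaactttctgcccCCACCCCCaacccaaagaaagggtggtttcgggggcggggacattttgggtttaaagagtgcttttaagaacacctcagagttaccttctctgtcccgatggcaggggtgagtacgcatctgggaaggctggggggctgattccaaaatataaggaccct
*Trim28*, chr7:13615722-13615921: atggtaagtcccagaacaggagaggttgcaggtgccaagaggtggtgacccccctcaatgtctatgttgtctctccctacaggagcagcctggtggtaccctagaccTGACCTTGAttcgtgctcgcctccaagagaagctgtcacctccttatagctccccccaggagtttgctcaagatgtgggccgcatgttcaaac
*Cbx7*, chr15:79801152-79801351: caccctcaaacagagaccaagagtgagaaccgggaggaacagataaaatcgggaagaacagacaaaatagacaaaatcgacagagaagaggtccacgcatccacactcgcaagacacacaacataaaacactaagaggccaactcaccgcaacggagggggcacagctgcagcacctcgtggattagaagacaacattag
*Jarid2*, chr13:44827432-44827631: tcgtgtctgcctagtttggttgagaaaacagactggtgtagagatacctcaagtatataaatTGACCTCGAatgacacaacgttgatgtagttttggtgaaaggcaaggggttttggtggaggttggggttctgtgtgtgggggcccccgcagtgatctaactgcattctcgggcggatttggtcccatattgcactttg
*Nodal*, chr10:60878322-60878521: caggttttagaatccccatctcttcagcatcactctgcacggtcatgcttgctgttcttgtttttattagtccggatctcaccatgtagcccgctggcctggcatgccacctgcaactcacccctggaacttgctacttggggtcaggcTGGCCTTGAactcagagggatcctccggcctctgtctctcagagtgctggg
*Dusp4*, chr8:35869502-35869701: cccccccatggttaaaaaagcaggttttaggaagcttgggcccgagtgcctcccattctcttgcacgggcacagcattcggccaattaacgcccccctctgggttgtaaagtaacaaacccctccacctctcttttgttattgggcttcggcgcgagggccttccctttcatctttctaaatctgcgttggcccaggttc

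The ESRRB match of *Trim28* is perfect and lies in an exon, 101 bp from an annotated start site, whereas those of *Jarid2* and *Nodal* have 1 mismatch. *Lef1* has a KLF match only, and *Cbx7* and *Dusp4* have none of the 4 motifs in these bases. All 6 windows have a GC content between 48% and 55%.

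Among the 14092 OCT4 regions without NANOG, those of medium cells only were the fourth most frequent of the 7 combinations of fractions. Regions of all 3 fractions numbered 4166, of high and medium 2484, of medium and negative 2205, of negative only 1141, of high only 1058, and of high and negative 1009. A further 282 OCT4 regions of medium cells only had NANOG in some fraction, 276 of them in high cells, 146 in medium cells and 6 in negative cells. These 282 were wider, with a median of 180 bp (interquartile range 120 to 260) against 60 bp (40 to 120) for the 2029 without NANOG. Since widths come from peaks merged over all libraries, they depend on the lists themselves.

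**Figure D1:**
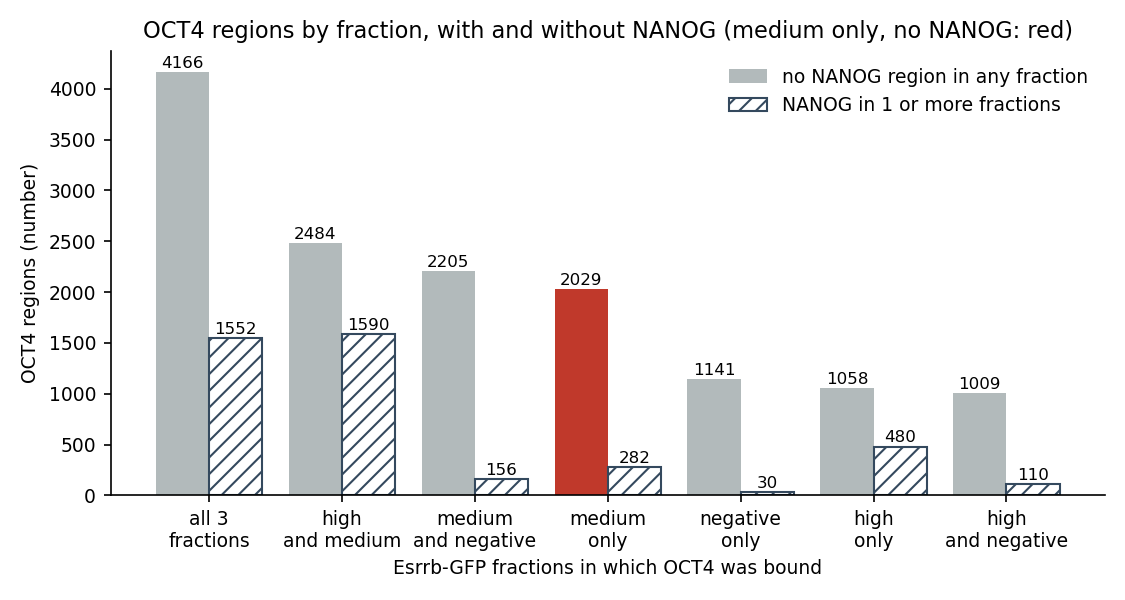
Number of OCT4 regions (y axis) by the Esrrb-GFP fractions in which OCT4 was listed (x axis); filled bars have no NANOG region in any fraction, hatched bars have NANOG in 1 or more fractions. The 2029 regions of medium cells only without NANOG are the red bar, and 282 of medium only have NANOG.

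The medium-only regions were narrow. Their widths ran from 40 to 820 bp, 634 were 40 bp wide, 59.4% (57.2 to 61.5) were at most 60 bp, and 178 were 200 bp or more, for a total of 183500 bp. The median was the same 60 bp for high-only and for negative-only regions and was 100 bp for regions of all 3 fractions.

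An octamer or Oct-Sox match within 100 bp of the centre was found in 207 of the 2029 medium-only regions, 10.2% (95% Wilson interval 8.96 to 11.6), below the 15.1% of all regions of the 6 lists. The share was 14.3% (12.3 to 16.5) in high-only, 20.2% (18.02 to 22.7) in negative-only and 24.8% (23.6 to 26.2) in all-fraction regions without NANOG. The difference, medium only minus the other class, was -4.07 percentage points (95% Newcombe interval -6.63 to -1.65) for high only, -10.0 (-12.8 to -7.41) for negative only and -14.6 (-16.5 to -12.7) for all 3 fractions. The interval of the difference from high only did not exclude 0 in 250-bp windows, with at most 1 mismatch in the composite, for regions of at most 60 bp, or in windows under and over 50% GC taken apart, where it was between -2.30 and -1.62 points. The same scan of windows 10 kb downstream of the medium-only regions gave 33 of 2029, 1.63% (1.16 to 2.28), an odds ratio of 6.87 (4.73 to 9.98) for the regions over their own downstream windows. Here and below, intervals against downstream windows treat regions and windows as independent and ignore that each window belongs to a region. All intervals given cover the counting of regions only, since regions of 1 library are not replicates of a condition.

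Both kinds of site contributed. The exact octamer was present in 131 medium-only regions (6.46%) and the Oct-Sox composite in 103 (5.08%), and 27 held both. For the composite the odds ratio of medium-only regions was 0.645 (0.477 to 0.872) against high only and 0.263 (0.212 to 0.325) against all 3 fractions. For the octamer it was 0.490 (0.402 to 0.599) against all 3 fractions, while against high only the difference of -1.48 points had an interval from -3.52 to 0.394. A composite with at most 1 mismatch was found in 14 medium-only regions (0.690%) and in 3.60% of all-fraction regions. With 1 mismatch allowed in the octamer, 30.5% (28.5 to 32.6) of medium-only regions and 49.5% (48.0 to 51.0) of all-fraction regions held a match. MORE, the palindromic element that OCT4 binds as a dimer, was found in 42 medium-only regions, 2.07% (1.53 to 2.79), which was below all 3 classes (4.82% in high only, 5.52% in negative only and 5.21% in all fractions) and differed from the downstream windows by 0.542 points with an interval from -0.286 to 1.39.

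**Figure D2:**
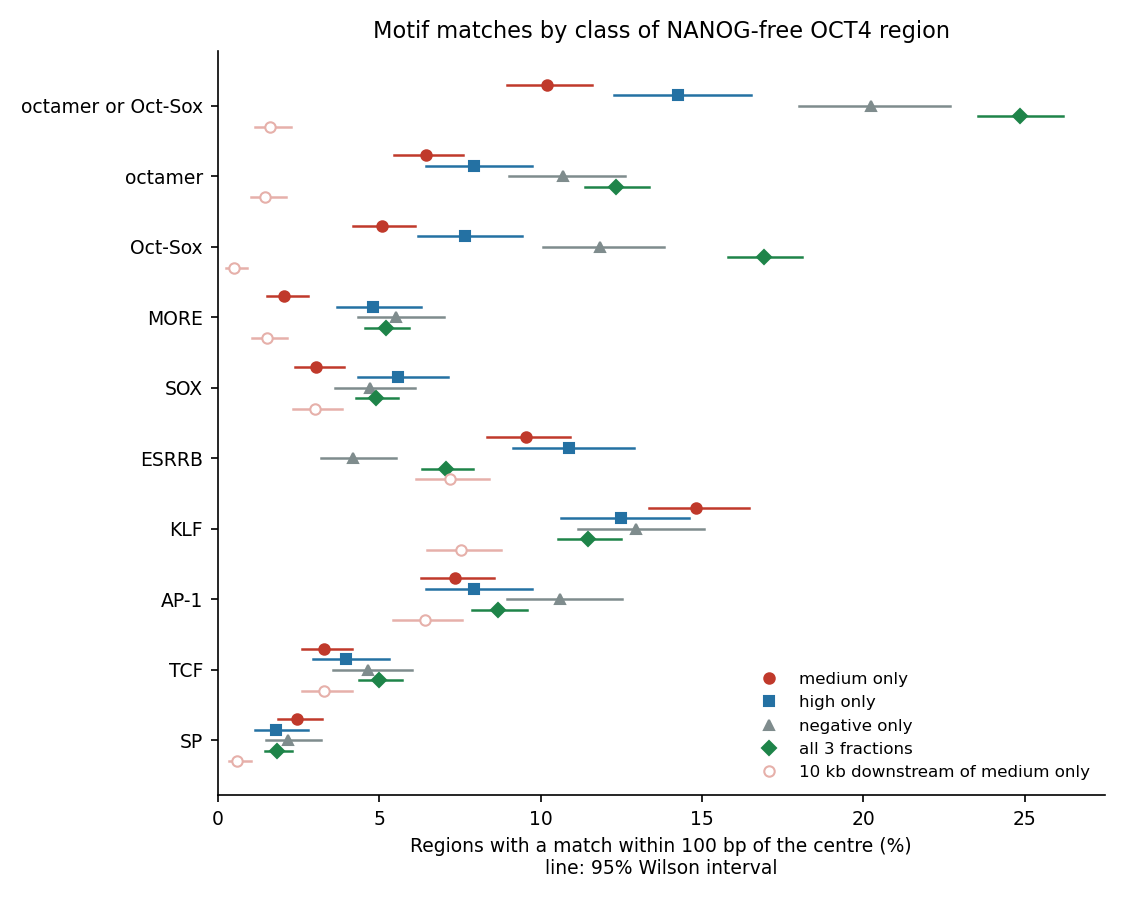
Share of regions with each motif within 100 bp of the centre (x axis, percent, with 95% Wilson intervals) for 4 classes of OCT4 region without NANOG and for windows 10 kb downstream of the medium-only regions. Medium-only regions (red) have the lowest share of the 4 classes for octamer or Oct-Sox, at 10.2%, and an ESRRB share of 9.56% beside 4.21% in negative only.

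The matches of medium-only regions were more frequent at the region centres. A match whose own midpoint lay in the 100 bp around the centre was found in 146 regions for the octamer or Oct-Sox, 7.20% (6.15 to 8.40), against 0.887% (0.642 to 1.23) of windows of the same length 400 to 500 bp away, counted the same way. Negative-only regions reached 16.9% (14.9 to 19.2) at the centre and 1.27% in the outer windows, high-only regions 10.4% and 1.18%, and all-fraction regions 20.2% and 1.02%. The classes differed at the centres, while the outer windows of all 4 held a match in 0.887% to 1.27%.

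**Figure D3:**
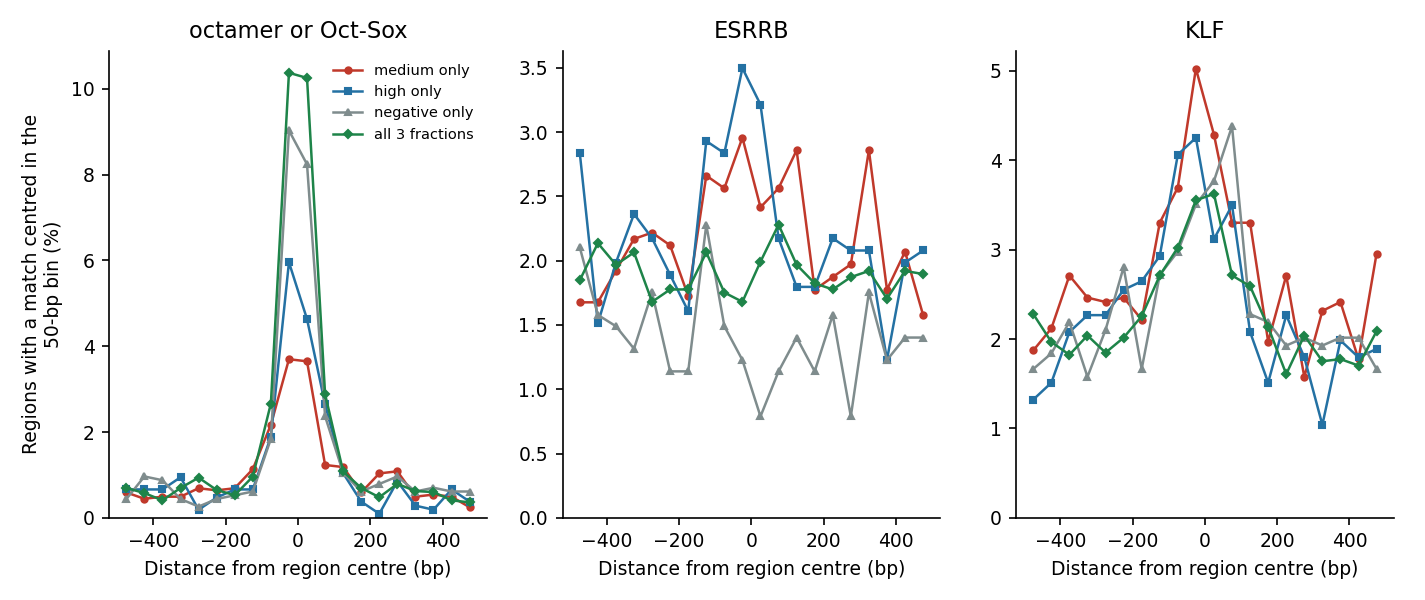
Share of regions (y axis, percent) with a motif match centred in each 50-bp bin by distance from the region centre (x axis, bp), for octamer or Oct-Sox, ESRRB and KLF. The octamer or Oct-Sox share of medium-only regions (red) peaks at 3.70% in the bin just left of the centre, under the other 3 classes, while their KLF share there, 5.03%, is above them.

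ESRRB matches were present in 194 medium-only regions, 9.56% (8.36 to 10.9), where all regions of the 6 lists had 11.2%. The share was 4.21% (3.19 to 5.53) in negative-only regions, 5.36 points lower (3.56 to 7.05), and 7.08% (6.34 to 7.90) in all-fraction regions, 2.48 points lower (1.02 to 4.03). High-only regions held 10.9% (9.13 to 12.9), and the difference from medium only of -1.31 points had an interval from -3.66 to 0.895. Downstream windows of the medium-only regions held 7.20% (6.15 to 8.40), which gives the regions an odds ratio of 1.36 (1.09 to 1.71) over them. Counted by the midpoint of the match, the excess was small in the 100 bp around the centre too, at 5.27% (4.38 to 6.33) against 3.50% (2.98 to 4.11) in windows 400 to 500 bp away. Both an ESRRB match and an octamer or Oct-Sox match were present in 19 medium-only regions; ESRRB matches were found in 9.18% of those with an octamer or Oct-Sox match and in 9.60% of those without, a difference of -0.426 points (-3.96 to 4.45).

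The KLF motif, a GC-rich box bound by KLF zinc finger factors, was the most frequent of the 17 motifs scanned, in 301 medium-only regions, 14.8% (13.4 to 16.4). All regions of the 6 lists had 11.9%. It also ranked first there and in high-only (12.5%) and negative-only (13.0%) regions, while Oct-Sox did so in all-fraction regions (16.9%). Motifs differ in length and in mismatches allowed, so this rank is not a trait of medium-only regions. KLF matches were found in 7.54% (6.47 to 8.77) of the windows downstream of medium-only regions, an odds ratio of 2.14 (1.74 to 2.62). Those windows were not matched for GC content. The share was 11.5% (10.5 to 12.5) in all-fraction regions, 3.36 points lower (1.57 to 5.22). Against high only and negative only the intervals of the difference, -0.234 to 4.82 and -0.685 to 4.30 points, included 0. In windows with a GC content of 50% or more, 17.9% of medium-only regions had a KLF match and the difference from all-fraction regions was 1.06 points (-1.69 to 3.87). In windows under 50% the share was 10.2% and the difference 2.43 points (0.211 to 4.92).

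Of the 17 motifs, 3 were less frequent in medium-only than in high-only regions by an interval that excluded 0 (Oct-Sox, MORE and SOX), 6 were less frequent than in negative only and 7 less frequent than in all 3 fractions. ESRRB was more frequent than in negative only, and ESRRB and KLF were more frequent than in all 3 fractions. Against their own downstream windows medium-only regions had more octamer, Oct-Sox, ESRRB, KLF, CTCF, NRF1 and SP matches and fewer OTX matches (GGGATTA), with 60 against 96. Downstream windows were not matched for GC content, which averaged 45.4% in them and 51.0% in the regions. SOX matches (CATTGTT) numbered 62 in the regions and 61 downstream, and TCF matches (ATCAAAG), sites of the Wnt effectors, 67 in both.

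Medium-only regions were richer in G and C. The mean GC content of their 200-bp windows was 51.0% (SD 4.99), 2.96 points (2.59 to 3.33) above high only, 2.33 points (1.94 to 2.72) above negative only and 2.28 points (2.01 to 2.54) above all 3 fractions. A GC content of 50% or more was found in 60.7% (58.5 to 62.8) of medium-only regions and in 37.0%, 40.4% and 41.3% of the other classes, beside 38% of all regions. Windows 10 kb downstream of medium-only regions had a mean of 45.4%, which was 1.64 points (1.06 to 2.22) above those of high only and 1.31 points (0.883 to 1.73) above those of all 3 fractions. CpG dinucleotides averaged 3.46 per window against 2.53 in high only, 2.96 in negative only and 2.93 in all 3 fractions.

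The motif content moved with GC content among the medium-only regions themselves. GC content was taken from the same windows that were scanned, and the octamer (ATGCAAAT) is mostly A and T. The measures are therefore not independent. The 798 with a GC content under 50% had an octamer or Oct-Sox match in 15.4% (13.1 to 18.1), and the 1231 others in 6.82% (5.55 to 8.37), a difference of 8.59 points (5.79 to 11.6). Within windows under 50% GC the difference from negative only was -10.0 points (-14.2 to -5.91) and from all 3 fractions -13.4 (-16.4 to -10.2), and within windows of 50% or more it was -5.76 (-9.33 to -2.63) and -12.3 (-14.6 to -9.95). The difference from high only was -2.28 points (-6.14 to 1.53) in the first group of windows and -1.62 (-5.04 to 1.21) in the second, so both intervals included 0. Width made less difference, with 10.6% in medium-only regions of at most 60 bp and 9.59% in wider ones.

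Medium-only regions lay closer to genes than the other classes. The median distance from the centre to the nearest annotated start site was 10612 bp (interquartile range 2878 to 30361), against 17356 bp for high only, 16866 bp for negative only and 14306 bp for all 3 fractions. A start site within 1 kb was found for 276 regions, 13.6% (12.2 to 15.2), where all regions of the 6 lists had 8.9%. The difference was 4.15 points (1.77 to 6.40) from high only, 1.82 (0.0692 to 3.64) from all 3 fractions and 1.25 (-1.24 to 3.62) from negative only. At the other end, 15.5% (14.0 to 17.2) of medium-only regions were over 50 kb from any start site, and 25.2%, 27.2% and 21.6% of high-only, negative-only and all-fraction regions, differences of -9.71 (-12.8 to -6.70), -11.6 (-14.7 to -8.65) and -6.06 points (-8.03 to -4.01). GC content moved with this result as well: among windows with 50% GC or more, the share within 1 kb was 15.6% in medium-only regions, and the difference became 1.53 points (-2.72 to 5.29) from high only, -0.575 (-3.22 to 2.13) from all 3 fractions and -5.01 (-9.38 to -0.961) from negative only. Among windows under 50% the share was 10.5%, and the differences were 3.78 points (0.873 to 6.64), 1.82 (-0.453 to 4.37) and 3.76 (0.870 to 6.61) in the same order.

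The 276 regions near start sites held fewer OCT4 sites than the rest. An octamer or Oct-Sox match was found in 6.52% (4.17 to 10.1) of them and in 10.8% (9.41 to 12.3) of the 1753 others, a difference of -4.26 points (-7.07 to -0.455). The match shares were not compared at like GC content. A GC content of 50% or more was found in 69.6% (63.9 to 74.7) of them and in 59.3% (57.0 to 61.5) of the others. The SP box (GGGGCGGGG), common in CpG-rich promoters, was found in 4.71% (2.77 to 7.89) of them and in 2.11% (1.53 to 2.90) of the others. Of all medium-only regions, 40.7% (38.6 to 42.9) were centred in introns, 5.32% (4.43 to 6.39) in exons and 54.0% (51.8 to 56.1) between genes, beside 39.9%, 3.86% and 56.3% of all regions. Only 28 were centred in coding sequence.

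**Figure D4:**
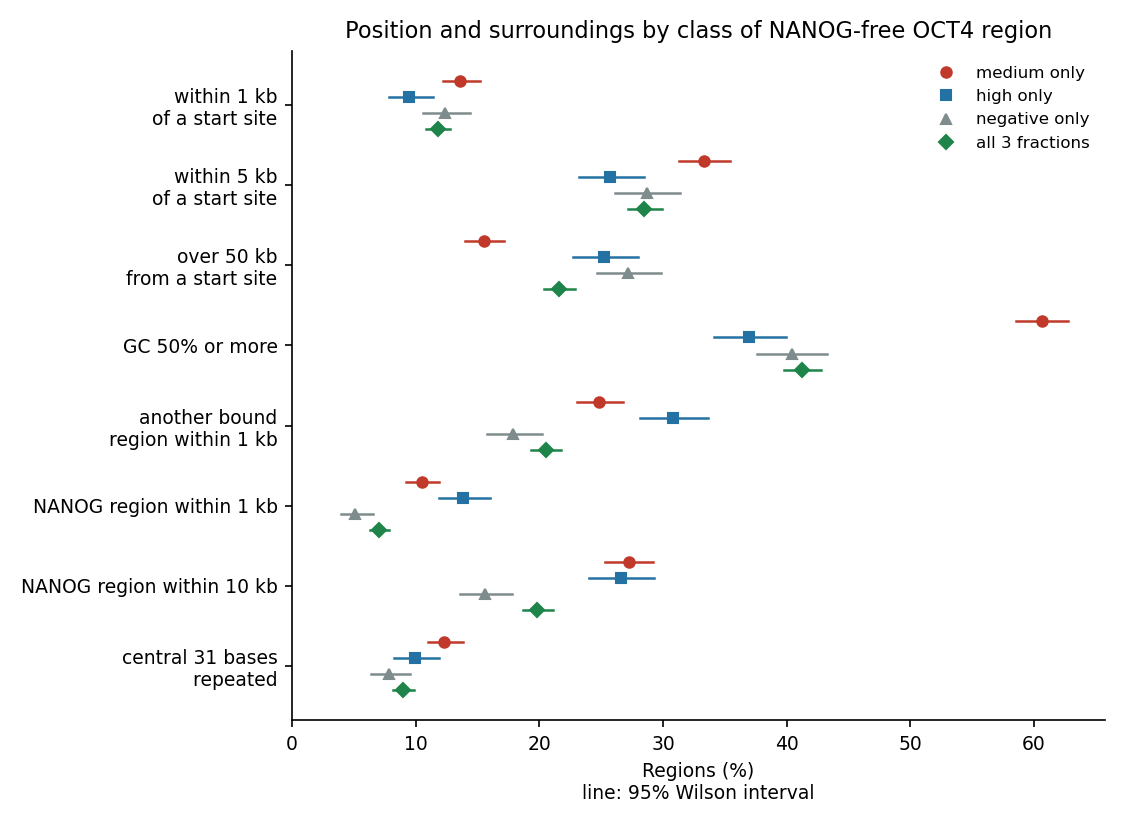
Share of regions (x axis, percent, with 95% Wilson intervals) by position, GC content and surroundings for 4 classes of OCT4 region without NANOG. Medium-only regions (red) have a GC content of 50% or more in 60.7% and lie over 50 kb from a start site in 15.5%.

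NANOG was listed near medium-only regions more often than near negative-only or all-fraction regions, at shares close to those of all regions. A NANOG region of any fraction lay within 1 kb of 213, 10.5% (9.24 to 11.9), and within 10 kb of 552, 27.2% (25.3 to 29.2), beside 10.2% and 24.3% of all regions. For negative-only regions these shares were 5.08% and 15.6%, lower by 5.42 points (3.51 to 7.22) and 11.6 points (8.69 to 14.4), and for all-fraction regions 7.03% and 19.8%, lower by 3.46 (1.963 to 5.05) and 7.38 points (5.12 to 9.68). High-only regions had 13.8% (11.8 to 16.01) within 1 kb, 3.30 points more than medium only (interval of the difference, medium only minus high only, -5.84 to -0.898), and 26.6% within 10 kb, which differed by 0.646 points (-2.69 to 3.89).

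Any other bound region was found within 1 kb of 504 medium-only regions, 24.8% (23.0 to 26.8), beside 22.8% of all regions. This was below the 30.8% of high only by -5.97 points (-9.36 to -2.65) and above the 17.9% of negative only by 6.96 (4.00 to 9.82) and the 20.5% of all 3 fractions by 4.34 (2.12 to 6.61). An OCT4 region listed in high cells lay within 1 kb of 332, 16.4% (14.8 to 18.04), beside 13.5% of all regions. This was 4.53 points (2.00 to 6.95) more than for negative-only and 4.77 (2.92 to 6.69) more than for all-fraction regions, while the difference from the 17.6% of high only was -1.22 points (-4.08 to 1.53). An OCT4 region listed in negative cells lay within 1 kb of 252, 12.4% (11.1 to 13.9), beside 10.2% of all regions, and here the differences from all 3 classes had intervals that included 0. Medium-only regions with a bound neighbour within 1 kb held an octamer or Oct-Sox match in 7.74% (5.71 to 10.4), and the 1525 without held one in 11.0% (9.54 to 12.7), a difference of -3.28 points (-5.90 to -0.232). The share of regions whose central 31 bases occur again in the genome was 12.3% (11.0 to 13.8), against 9.92%, 7.80% and 8.95% in high only, negative only and all 3 fractions; with these left out, 11.2% (9.86 to 12.8) of medium-only regions held an octamer or Oct-Sox match.

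A further medium-only region lay within 10 kb of 231 medium-only regions, 11.4% (10.1 to 12.8), and a medium-only region lay as close to 7.68% of all regions. The share was 5.52% for negative-only regions, lower by 5.86 points (3.89 to 7.74), 7.39% for all-fraction regions, lower by 3.99 (2.44 to 5.63), and 9.83% for high-only regions, with a difference of 1.55 points (-0.787 to 3.76). The other 1798 stood alone at this distance, 100 pairs were that close, and 10 runs held 3 or more. The longest run, of 4 regions, was at chr4:53348172-53354211, closest to *AI427809*, and 1 run of 3 lay at *Hoxb3* and *Hoxb4*, homeobox genes of the anterior-posterior axis (chr11:96181192-96192971). By chromosome, 172 regions (8.48%) were on chromosome 11, which holds 6.48% of all regions and 4.59% of the chromosome length, and 1.41 lay there per Mb. Chromosome X held 20 regions, 0.986% (0.639 to 1.52), with 6.28% of the length, at 0.120 per Mb, beside 2.28% of all regions. The difference was -0.905 points (-1.97 to -0.0543) from the 1.89% of high only, -0.815 (-1.38 to -0.171) from the 1.80% of all 3 fractions and -0.592 (-1.56 to 0.193) from the 1.58% of negative only, and per Mb high-only and negative-only regions stood at 0.120 and 0.108. Chromosome Y had no medium-only region. The chromosomes also differ in gene content, with 13.6 protein-coding genes per Mb on chromosome 11 and 5.59 on X. Chromosomes 7 and 18, with 13.6 and 5.70 genes per Mb, held 0.774 and 0.617 medium-only regions per Mb. A relation to gene content was not tested.

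Protein-coding genes with a medium-only region in their body or within 20 kb numbered 2021 of 22380, or 9.03%, and 72.8% (70.9 to 74.7) of the regions had such a gene, against 68.1%, 62.1% and 67.4% in high only, negative only and all 3 fractions. Of these genes 1757 had 1 region, 227 had 2 and 37 had 3 or more. For 554 genes, 27.4% (25.5 to 29.4), no other bound region of any list was within 20 kb. The same count was not made for the other classes, so whether this share is particular to medium-only regions is not known. For comparison, high-only regions reached 4.22%, negative-only regions 4.29% and all-fraction regions 15.1% of the same genes, from 1058, 1141 and 4166 regions. The largest numbers fell to long or clustered loci: 7 at *Gm20388*, an annotated gene of 4434882 bp, and 4 each at *Hoxb4*, *Ttyh2*, *Gse1*, *Hspg2*, *Pknox2* and *Fgfr2*, the last annotated here over 3009069 bp. *Gm14396*, *Hoxd9* and *Hoxd12*, neighbours in the Hoxd cluster, had 3 each. *Hspg2*, which encodes the basement membrane proteoglycan perlecan, had 5 OCT4 regions in medium cells, none in high cells and 1 in negative cells. Of those 5, 4 are its medium-only regions, which by the rule of choice count in medium cells alone.

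Genes of pluripotency and early development were described from 11 lists. Of 176 listed genes in the annotation, 50 had a medium-only region within 20 kb, 28.4%, where all protein-coding genes had 9.03%. The other classes also reached a larger share of listed genes, with 10.8% for high only, 11.9% for negative only and 27.3% for all 3 fractions beside 4.22%, 4.29% and 15.1% of all protein-coding genes. No test was made of these counts, the lists are small, and longer genes can hold more regions; the median length was 14385 bp for listed genes and 15420 bp for all. Distances at these genes run from the centre of a region to the nearest annotated start site of the gene, which can lie inside it. Numbers of OCT4 regions in medium cells at a gene include its medium-only regions. By the rule of choice these add to medium cells alone, so an excess of that size over the other fractions is not a result. As a check of the label, all 14 core and general pluripotency genes had an OCT4 region of medium cells within 20 kb.

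Among naive pluripotency factors 9 of 20 genes (45%) had a medium-only region. High-only regions reached 4 (20%), negative-only regions 2 (10%) and all-fraction regions 6 (30%). The classes differ in size, and in the same order they reached 9.03%, 4.22%, 4.29% and 15.1% of all protein-coding genes. *Zfp42*, the naive marker also known as Rex1, had 2, with 2 OCT4 regions in high cells, 4 in medium cells and none in negative cells. *Dppa5a*, an RNA-binding protein of naive cells, had 2 among 8 OCT4 regions of high, 10 of medium and 2 of negative cells. *Tet1*, a 5-methylcytosine dioxygenase, had 2 in introns, 3374 and 7024 bp from a start site, and its relative *Tet2* had 1 at 10612 bp. *Esrrb* itself had 1 region 220 bp wide in an intron, 7755 bp from a start site, beside 7 NANOG regions, with 6 OCT4 regions listed in high, 6 in medium and 2 in negative cells. *Klf2*, *Tdgf1*, a Nodal co-receptor, and *Dppa4* had 1 each, and 1 further gene had the region furthest from a start site.

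Core and general factors had medium-only regions at 6 of 14 genes. *Foxd3*, a forkhead factor, had 2 upstream, 5878 and 16388 bp from the start, the closer one 600 bp wide. *Jarid2*, a partner of Polycomb complex PRC2, had the region printed above, in an intron and 304 bp from an annotated start site inside the gene, and another 18231 bp upstream. *Trim28*, a corepressor, *Mycn*, a MYC family member with its region 962 bp upstream, *Lin28a*, an RNA-binding protein, and *Sall4*, a zinc finger factor, had 1 each.

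Formative and primed state genes had medium-only regions at 5 of 19 genes, and 3 of these lay within 500 bp of an annotated start site. *Lef1*, a Wnt effector, had its region 23 bp from a start; *Otx2*, a homeobox factor of the post-implantation epiblast, 105 bp; and *Etv4*, an ETS factor downstream of FGF, 467 bp, with ESRRB and KLF matches in a region of 300 bp. At *Otx2* OCT4 was listed in medium cells only, and the single NANOG region near the gene lay 20 bp from the OCT4 region. *Etv5* and *Grhl2*, an epithelial factor, had 1 each at 4550 and 28056 bp.

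At lineage genes the counts were 7 of 19 neural and ectoderm genes, 4 of 20 endoderm and mesoderm genes and 1 of 9 trophoblast genes. Negative-only regions were at 8, 0 and 2 of the same genes. Of all protein-coding genes, 9.03% had a medium-only and 4.29% a negative-only region. *Six3*, a forebrain homeobox gene, and *Cdh1*, which encodes E-cadherin, had 2 medium-only regions each. *Pax6*, *En2*, *Zic1*, *Pou3f2* and *Nes* had 1 each, and all 7 genes also had an OCT4 region of negative cells within 20 kb. *Gsc*, a homeobox gene of the organiser, had 2 regions, 1845 bp upstream and 20215 bp downstream of its start, and no region of any other list within 20 kb. *Foxa2*, an endoderm factor, *Cer1*, a secreted Nodal and BMP antagonist, and *Kdr*, the VEGF receptor, had 1 each, and *Gata3*, a trophoblast factor, had 2 in an intron.

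**Figure D5:**
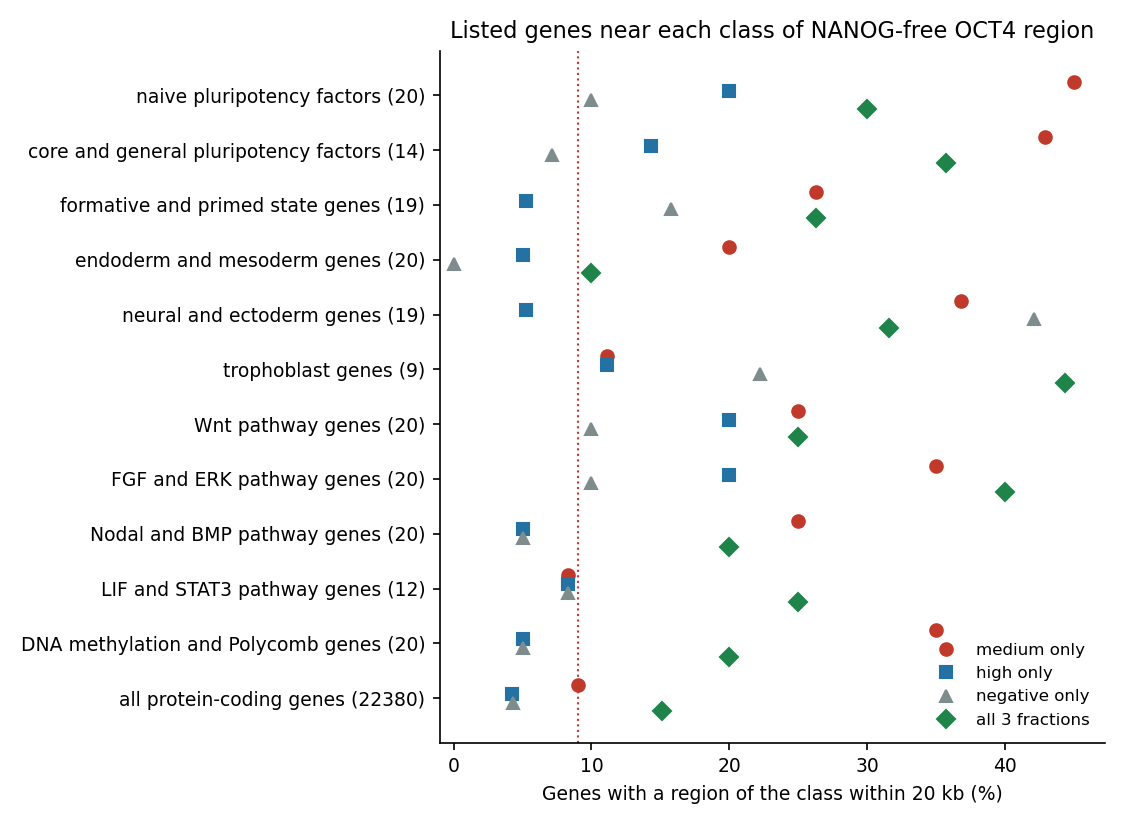
Share of the genes of each list (x axis, percent; number of genes in brackets) with a region of each class of NANOG-free OCT4 regions within 20 kb. The dotted line is the 9.03% of all protein-coding genes with a medium-only region; classes differ in their number of regions, and medium-only regions (red) reach 45% of naive pluripotency factors.

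Signalling genes were reached in each pathway. In the Nodal and BMP pathway, 5 of 20 genes had a medium-only region. *Nodal*, the TGF-beta family ligand, had 2, 2298 bp upstream and 4172 bp inside the gene, each with an ESRRB match and neither with an octamer or Oct-Sox match. *Lefty1*, its inhibitor, had 3, at 731 bp upstream, 719 bp inside and 12650 bp downstream of an annotated start site, among 3 OCT4 regions in high, 6 in medium and 3 in negative cells. *Lefty2* had 1 at 3077 bp upstream with an ESRRB match, *Tdgf1* 1, and *Smad7*, the inhibitory SMAD, 1 at 2424 bp with a KLF match. In the FGF and ERK pathway 7 of 20 genes had one: the receptor *Fgfr2* (4), the RAS exchange factor *Sos1* and the kinase *Map2k1* (2 each), *Etv4*, *Etv5*, *Spry4*, an inhibitor, and *Dusp4*, a phosphatase of ERK whose only bound region within 20 kb was the one 749 bp upstream. The 4 at *Fgfr2* were counted over an annotated length of 3009069 bp with 41 other bound regions. The most distant lay 682890 bp from a start site.

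In the Wnt pathway the 5 of 20 genes were *Tcf7l1*, a repressor of target genes in ESCs, with 2 regions, *Lef1*, the receptors *Fzd7* and *Fzd5*, each with a region in an exon, and the ligand *Wnt3a*. Of LIF and STAT3 pathway genes, *Pim3*, a kinase, had 1 region. That is 1 of 12 genes (8.33%), near the 9.03% of all protein-coding genes. High-only and negative-only regions also reached 1 of the 12 each. An OCT4 region of medium cells was near 8 of the 12. DNA methylation and Polycomb genes had medium-only regions at 7 of 20 (35%). High-only regions were at 1 (5%), negative-only regions at 1 (5%) and all-fraction regions at 4 (20%). The same classes reached 9.03%, 4.22%, 4.29% and 15.1% of all protein-coding genes. Beside *Jarid2*, *Tet1* and *Tet2* these were *Cbx7* and *Ring1*, of PRC1, and *Mtf2* and *Suz12*, of PRC2. *Cbx7* and *Mtf2* had theirs 296 and 446 bp from a start site. The central 31 bases of the *Ring1* and *Suz12* regions occur 26 and 21 times in the genome, so these 2 regions are uncertain.

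Near listed genes there were 68 distinct medium-only regions. An octamer or Oct-Sox match was present in 3 of them, 4.41% (1.51 to 12.2), beside 10.2% (8.96 to 11.6) of all medium-only regions, an ESRRB match in 9, 13.2% (7.12 to 23.3), and a KLF match in 10, 14.7% (8.19 to 25.0). Another bound region lay within 1 kb of 29, 42.6% (31.6 to 54.5), against 24.8% of all medium-only regions. They were centred in introns in 27 cases, upstream of the gene in 24, downstream in 12 and in exons in 5, and 12 lay within 1 kb of a start site of the listed gene. For *Dusp4*, *Gsc* and *Ring1* no region of another class was within 20 kb. Of all protein-coding genes with a medium-only region, 27.4% had no other bound region this close.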

How the data were processed

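OCT4 and NANOG ChIP-Seq libraries from 3 sorted Esrrb-GFP fractions (1 library each, 6 in all) were grouped by the antibody and the fraction that their labels give. The authors aligned reads with Bowtie to mm9 (both named in the submitters' processing notes), used SISSRs within GeneProf as the peak caller, joined peaks that overlapped between datasets, and counted a region as lost from a fraction that kept under 50% of its highest depth-normalised signal. The deposited lists give coordinates with no measurement, and starts were read as counting from 0. No read number was given, so depth is unknown; the number of regions sets the precision.

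Regions were matched by exact coordinates. Widths are multiples of 20 bp and no distinct regions overlapped. Motifs (17) were scanned on both strands within 100 bp of region centres and in windows 10 kb downstream; Oct-Sox, MORE and CTCF allowed 2 mismatches, ESRRB 1 and the others 0. An Oct-Sox match can overlap an octamer match, as in the printed bases of *Zfp42*. How often they overlap where both are present was not counted. Genes and start sites came from GENCODE for the same assembly (NCBIM37; 37310 genes), with 20 kb around gene bodies. Shares have 95% Wilson intervals, differences 95% Newcombe intervals, means large-sample intervals, and no p-value was computed. The members, gene lists and motifs were chosen with earlier results of these data known. Named genes are those of 11 lists with a member within 20 kb, at most 8 per list, those with most members and then those closest to a start site, and the 10 protein-coding genes with most members. Sequences were to be printed for up to 10 regions near listed genes with an exact octamer or an Oct-Sox composite with up to 1 mismatch, and for 4 without. The sequence of *Zfp42*, in a region of over 300 bp, is printed as its central 200 bases.

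Python 3.11.15, numpy 2.4.6, pandas 2.3.3, scipy 1.17.1, pysam 0.24.0, samtools 1.23.1 and matplotlib 3.10.9 were used. On simulated data with known answers, 11 of 11 were recovered. Alternatives were other windows, mismatch limits, widths, distances, autosomes, and regions with no neighbour or far from start sites. GC content and unique central bases were added after seeing the data.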

Additional observations from a re-analysis of the deposited data

How the results depend on the processing

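The number of medium-only regions was 2009 on autosomes and 1659 without those that had an entry of another list within 500 bp. An overlap of 1 bp in place of exact matching gave the same 2029. That outcome was fixed in advance, because no distinct regions overlapped. Their octamer or Oct-Sox share stayed below negative-only and all-fraction regions, by intervals that excluded 0, under every alternative tried. The share itself was 6.75% with the whole match inside 50 bp either side and also with at most 1 mismatch in the composite, 15.2% with 250 bp, 31.8% with 1 mismatch in the octamer, 15.4% in windows under 50% GC and 6.82% in the others. Against high only, the interval included 0 with 250-bp windows (-2.12 points), at most 1 mismatch in the composite (-1.75), regions of at most 60 bp (-2.30), and in windows under 50% GC (-2.28) or of 50% or more (-1.62).

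The ESRRB share was 1.48% for exact matches, 4.83% with the whole match inside 50-bp and 20.5% with 250-bp windows; exact matches turned the difference from high only to 0.155 points, with 0 inside both intervals. The KLF share was 10.2% under 50% GC and 17.9% at 50% or more, where the differences were 1.06 points from all 3 fractions, -1.31 from high only and -3.39 from negative only, the last 2 turned in sign.

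The share near a start site was 11.1% for protein-coding genes, 8.48% within 500 bp, 33.3% within 5 kb, 10.5% under 50% GC and 15.6% above. The difference from high only was no longer past 0 for regions of at most 60 bp (2.58 points) and at 50% GC or more (1.53). That from negative only passed 0 within 5 kb (4.66) and under 50% GC (3.76) and turned at 50% GC or more (-5.01). That from all 3 fractions was not past 0 for protein-coding genes (1.58), within 500 bp (0.868), for regions of at most 60 bp (1.10) or under 50% GC (1.82), and turned at 50% GC or more (-0.575).

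Another bound region was near 19.0% within 500 bp and 41.2% within 5 kb, where the difference from high only was -2.94 points and its interval included 0. Mean GC content was 51.4% with 50-bp and 49.3% with 250-bp windows, and all 3 differences stayed above 0. Genes with a medium-only region numbered 1155 within 5 kb, 3507 within 50 kb and 1303 with the closest gene only. The cause of these changes was not tested. The other 75 alternative values kept their direction and their side of 0 or, for shares and counts, stayed within the interval of the value reported or within 1.5 times. Depth per library is unknown. Replicates could not be paired between fractions because every factor and fraction has only 1 library. Regions and their own downstream windows do form pairs, but their intervals were computed without this pairing.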
